A study of Pistacia vera with 121 samples.

Results

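In the seed of the pistachio cultivar Kerman, a small number of transcripts took up a large part of the messenger RNA that was sequenced, and 56 such genes are described here. They are the genes whose highest mean in kernel at any sampling point was at least 2000 CPM and at least 5 times every mean in hull and in shell, where CPM is counts per 1000000 counts in the genes of the numbered chromosomes (identifiers starting with PvKer). The choice was made from 37063 such genes, of 38315 identifiers in the deposited table. The levels in kernel, and their distance from hull and shell, chose the genes, so these values are given as a description with no test.

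Hull (the outer fruit wall), shell (the hard inner wall around the seed) and kernel (the seed) were separated from fruit of 1 cultivar and profiled by RNA sequencing over a season measured in growing degree days (°C), a running sum of heat that tracks development. No treatment was applied, so a group is 1 tissue at 1 sampling point. The series holds 121 libraries, of which the choice left out 14 whose labels or composition were in doubt, 10 of them from kernel. It used 29 kernel libraries of 10 points (1223 to 2377), 44 hull libraries of 15 points (865 to 2564) and 34 shell libraries of 11 points (865 to 2139).

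As background, a filling seed stores protein and oil for the seedling, and in many plants the transcripts of a few families, among them seed storage proteins, the oleosins that coat oil bodies and late embryogenesis abundant proteins, come to dominate its messenger RNA. Genes active while the embryo and its nutritive tissues still grow usually give way to storage genes, and these in turn to genes of late maturation and drying. Which of the 56 genes belongs to which of these families is not known here, because 0 of the 38315 identifiers matched a name that RefSeq gives for the PisVer_v2 assembly. The genes therefore appear under their identifiers, no role is given to any, and the tissue labels could not be checked against named marker genes. The first number of an identifier is its chromosome. CPM is not divided by transcript length, so an order of genes by CPM is an order of shares of reads, not of transcript numbers.

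Kernel libraries used by the choice held 850623 to 12312036 counts in genes, with a median of 8290040. Hull libraries held 7680501 to 18115772 and shell libraries 7654046 to 16586003. Each of the 56 genes had a count in every kernel library. Counting error is small beside the spread between libraries: the 95% Wilson interval of the share of counts in the 56 genes extended at most 0.0976 percentage points to each side in any library used. Such intervals cover counting error only. Replicates are separate libraries, but the labels do not say that they came from separate trees, so each p-value measures only the spread between these libraries, which may be technical. In bulk tissue, fewer cells of a kind and less RNA per cell cannot be told apart.

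Some libraries stood apart. The 3 libraries labelled kernel 2564 had profiles like those labelled kernel 1223, and the 3 labelled kernel 2475 held only 304704 to 530385 counts in genes, with 69.4% to 87.1% of all counts on contig-named identifiers. All 6 were left out of the choice and are used only in a comparison of their own. Among the libraries used, replicate 1 of kernel 1881 held the 56 genes at 56.4% of its counts, and the other 3 libraries of that point at 39.99% to 46.1%. Replicate 3 of kernel 2139 had the lowest depth, 850623 counts, and 58.1% of all its counts on contigs. Replicate 1 of shell 1759 had 2.60% of its counts in the 56 genes, the highest of any shell library.

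The 56 genes together held 17.5% ± 4.65 (SD, n = 3) of kernel counts at 1223 degree days, and their share climbed to 34.2% ± 2.71 at 1357, 46.1% ± 1.87 at 1508 and 50.8% ± 2.10 at 1657 (each n = 3). It was highest at 1759, at 53.3% ± 1.19 (n = 2). From there it went down through 46.1% ± 7.28 at 1881 (n = 4), 38.1% ± 2.95 at 2007, 29.02% ± 1.08 at 2139 and 23.6% ± 2.21 at 2284 (each n = 3) to 19.6% ± 1.22 at 2377 (n = 2). Without replicate 1 of kernel 1881 the mean at that point was 42.7% ± 3.08 (n = 3). At 1223 the 3 libraries held 20.04%, 12.1% and 20.3%, and 1 library was well below the other two.

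**Figure D1:**
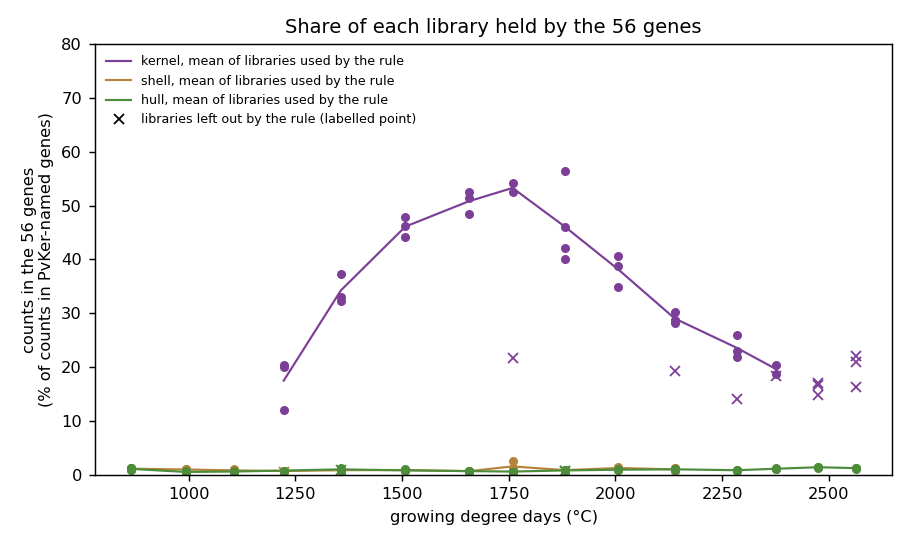
Share of the counts in PvKer-named genes (vertical axis, percent) that fell in the 56 genes, against growing degree days (°C). Points are libraries used by the choice, lines are means per sampling point, and crosses are libraries left out, at their labelled point. Kernel means climb from 17.5% at 1223 to 53.3% at 1759 and come down to 19.6% at 2377, while every hull and shell library used lies between 0.417% and 2.60%.

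In the other tissues the same genes were a small part of the total. Hull libraries held 0.417% to 1.48% of their counts in the 56 genes, with a median of 0.859%, and shell libraries 0.610% to 2.60%, with a median of 0.866%. At each kernel point 7 to 10 of the 10 genes with the highest mean were among the 56. Both of 2 other sets of kernel genes held less at every kernel point. The 254 genes with a highest kernel mean of 200 to 2000 CPM and the same distance from hull and shell held 4.53% to 7.93% of kernel counts over the season. The 30 genes of at least 2000 CPM that did not reach that distance held 3.40% to 9.24%.

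Of the 56 genes, 7 reached means of at least 20000 CPM, and they carried most of the rise and fall. Their joint share was 9.90% at 1223, 41.3% at 1657, 43.5% at 1759 and 6.18% at 2377. The other 49 genes moved in a much narrower band, from 7.59% at 1223 to 14.6% at 2284. The number of the 56 genes at 2000 CPM or more went from 17 at 1223 to 38 at 2284 and 32 at 2377. A further 5 genes reached 10000 CPM. All 10 points were at 2000 CPM or more in 7 genes, and 9 genes were at that level at 1 point only.

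PvKer.03.g067840 had the highest mean of all. At 1759 its 2 libraries held 110172 and 112241 CPM. At 1223 its libraries held 2988, 9335 and 11453 CPM, and at 2377 they held 501 and 653 CPM. No library of 1223 or 2377 came near those of 1759. At 1881 one library held 129283 CPM, and the other 3 held 32868, 34355 and 51864 CPM. That library, replicate 1, lay beside those labelled 1759, and without it the mean at 1881 was 39695 CPM instead of 62092 CPM.

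PvKer.11.g275270 was second, with 73183 and 133240 CPM at 1759. Their coefficient of variation was 41.1%, while the median at the highest point was 15.7% over the 40 genes with 3 or more libraries there. It had the smallest range over the season among the 7, from 15284 CPM at 1223 to 103211 CPM at 1759, a ratio of 6.75. It was also the 1 gene of the 56 whose mean reached 2000 CPM in hull or shell. Its 3 hull libraries of 2475 held 10274, 10731 and 11650 CPM, all below the lowest kernel library used, at 12556 CPM.

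PvKer.03.g067830 was high earlier and for longer. Its libraries held 68437, 78584 and 93167 CPM at 1508, and 13449, 35222 and 38419 CPM at 1223. At 2377 the values were 5801 and 7466 CPM, below every earlier library. PvKer.01.g016140 held 74967, 77682 and 78036 CPM at 1657, where its coefficient of variation was 2.18%, the lowest of the 40 genes. It had a second high at 2007, with 61519, 62950 and 71410 CPM, above all 6 libraries of 1759 and 1881, which held 43781 to 51432 CPM.

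PvKer.07.g172850 held 60985, 62892 and 63824 CPM at 1657, and 4176 and 5185 CPM at 2377. PvKer.07.g172620 held 44563 and 62357 CPM at 1759, against 1235, 4761 and 7513 CPM at 1223 and 4457 and 4807 CPM at 2377. Its first and last points thus overlapped. PvKer.01.g032170 was the latest of the 7: it held 43125, 43162 and 50305 CPM at 2007, and 1998, 5307 and 6591 CPM at 1223.

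**Figure D2:**
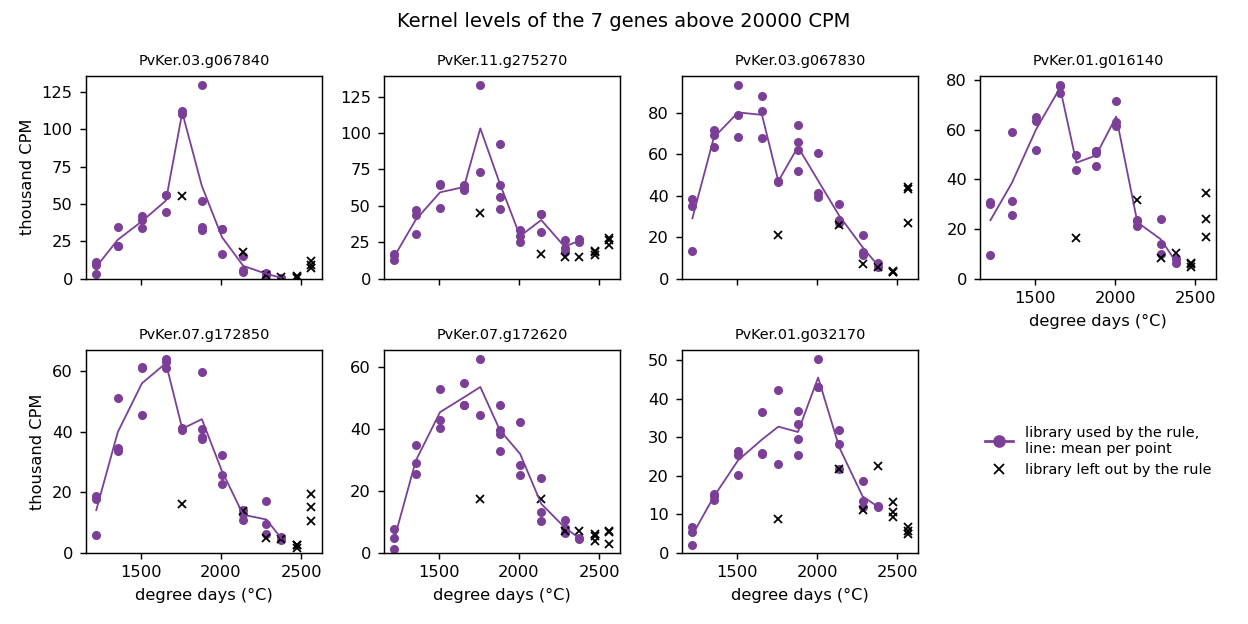
Level in kernel (vertical axis, CPM divided by 1000, 1 scale per panel) of the 7 genes above 20000 CPM against growing degree days (°C). Points are libraries used by the choice, lines are means per point and crosses are libraries left out, at their labelled point. PvKer.03.g067840 reaches 111206 CPM at 1759 and is at 577 CPM at 2377, while PvKer.11.g275270 is still at 26146 CPM at 2377.

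Sorted by the period of their highest kernel mean, 8 genes were highest at 1223, 9 at 1357 to 1657, 9 at 1759 to 1881, 7 at 2007 to 2139 and 23 at 2284 to 2377. The last period thus held 41.1% of the genes, and 32.3% of the 254 genes of lower level at the same distance from hull and shell. The first point held 14.3% of the 56 genes and 38.19% of the 254. Of the 30 genes of at least 2000 CPM that did not reach that distance, 60% were highest in the last period and 16.7% at 1223. With library sizes scaled by TMM (trimmed mean of M-values) in place of the plain total, 52 of the 56 genes kept their period and 48 their point.

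**Figure D3:**
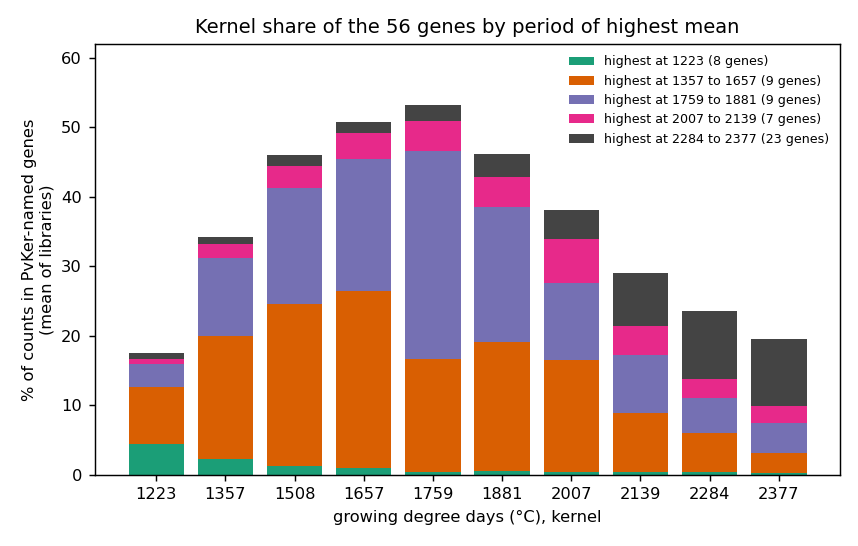
Mean share of kernel counts in PvKer-named genes (vertical axis, percent) held by the 56 genes at each of the 10 kernel points, stacked by the period in which each gene had its highest mean. The 8 genes of 1223 shrink from 4.42% to 0.251%, the genes of 1357 to 1881 fill most of the middle of the season, and the 23 genes of 2284 to 2377 grow from 0.798% to 9.66%.

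The 8 genes highest at 1223 held 4.42% of kernel counts there and 0.251% at 2377. PvKer.06.g159720 led them with 8936, 10550 and 10624 CPM at 1223, and its mean was lowest at 2377, at 632 CPM. PvKer.02.g046510 held 6568, 7541 and 11604 CPM at 1223, and its lowest mean was 20.8 CPM, at 2284. PvKer.06.g159720 kept a base level in every tissue, with hull libraries at 333 to 1607 CPM, while PvKer.02.g046510 was at 13.1 CPM or less in every hull library used. The median ratio of highest to lowest kernel mean was 364 in these 8 genes, against 8.67 in the 9 genes of 1759 to 1881.

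The 9 genes of 1357 to 1657 held 25.5% of kernel counts at 1657, and the 9 genes of 1759 to 1881 held 29.8% at 1759. PvKer.01.g027440 is an example of a gene with little change: it held 11514, 11697 and 13218 CPM at 1508, and its lowest mean, 4233 CPM at 1223, was lower by a factor of 2.87. Most of these genes stayed at 50% or more of their highest mean for several points, with a median of 5 points in the first of these groups and 6 in the second.

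The 7 genes of 2007 to 2139 held 6.38% of kernel counts at 2007, most of it PvKer.01.g032170. PvKer.01.g011350, the next, held 4246, 5654 and 5678 CPM at 2007 and 213, 462 and 467 CPM at 1223, with no overlap between the points. The 23 genes of 2284 to 2377 were mostly of lower level, with a median highest mean of 2888 CPM.

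PvKer.04.g093120 led the late genes, with 10978 and 16467 CPM at 2377 and 41.6, 60.7 and 71.7 CPM at 1223. PvKer.08.g195980 held 9702, 11115 and 15460 CPM at 2284 and 1241, 1731 and 2098 CPM at 1223. Both genes had all late libraries far above all libraries of 1223. Replicates agreed less in one late gene: PvKer.11.g278740 held 1048, 1076 and 6541 CPM at 2284, a coefficient of variation of 110%, the highest of the 40 genes, with 1 library far above the others. At 2377 it held 1585 and 3276 CPM.

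**Figure D4:**
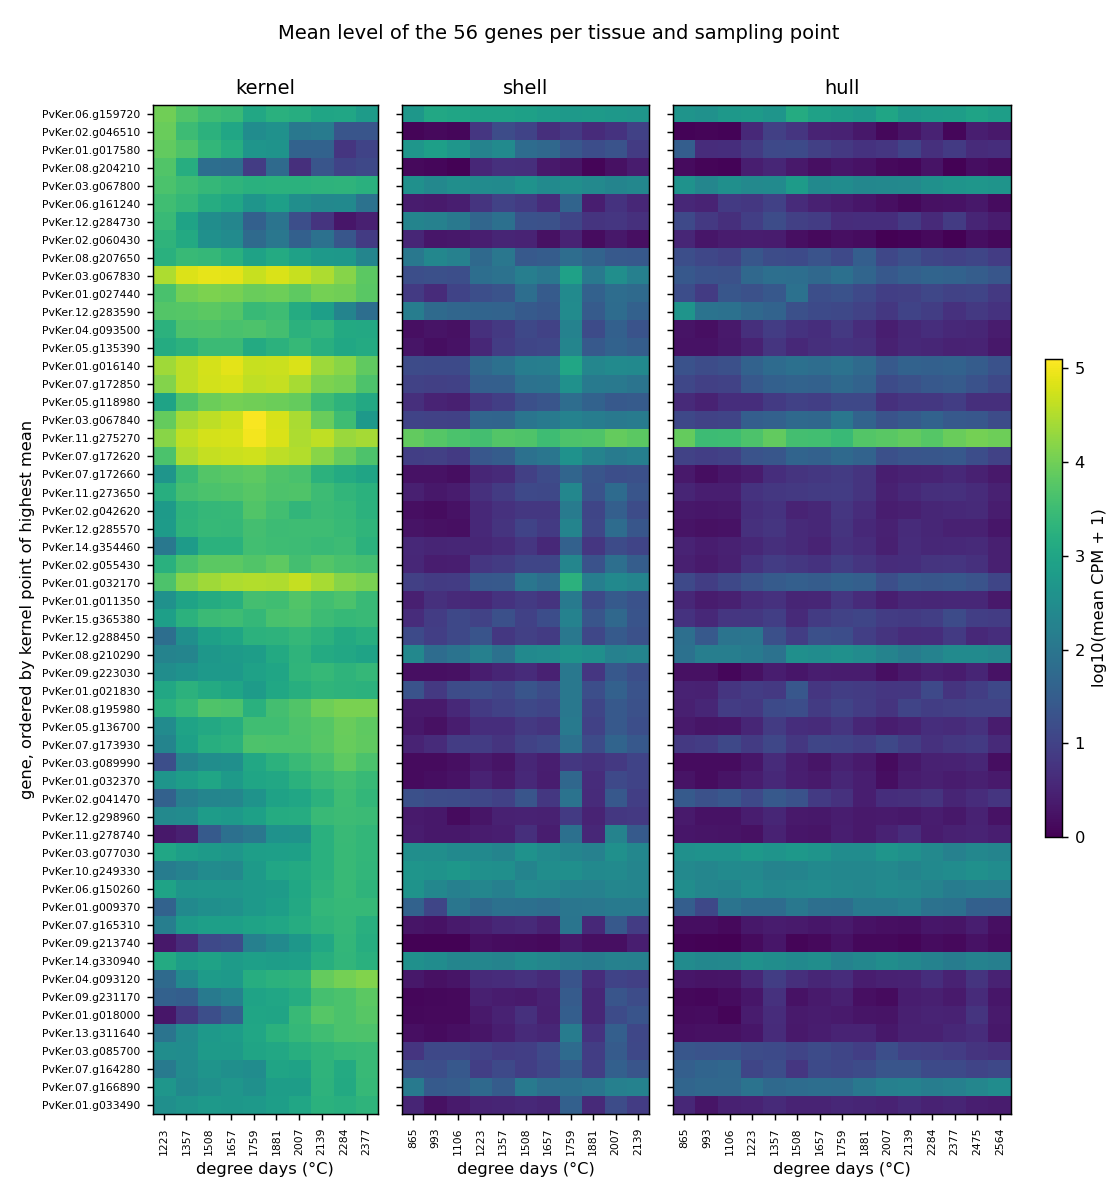
Mean level of each of the 56 genes (rows, ordered by the kernel point of the highest mean) at each sampling point (columns, growing degree days in °C) of kernel, shell and hull. Colour is log10 of mean CPM plus 1. The diagonal band in the kernel panel is the order used to sort the rows, and the column shell 1759 stands out across many rows in the shell panel.

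The distance from the other tissues varied widely among the 56 genes. The ratio of the highest kernel mean to the highest hull or shell mean ran from 5.08 to 1401, with a median of 39.3, and was at least 10 in 46 genes and at least 100 in 16. The highest mean outside kernel was under 100 CPM in 20 genes, under 10 CPM in 5 and at least 1000 CPM in 4. PvKer.09.g213740 had the largest ratio: its kernel libraries of 2284 held 1641, 2626 and 2947 CPM, and its highest mean outside kernel was 1.72 CPM, in shell at 2139.

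The highest mean outside kernel fell in shell at 1759 for 36 of the 56 genes. Of the 3 libraries there, replicate 1 had a value above both others in 52 genes. The same count over all genes was not made. In PvKer.01.g032170 the 3 libraries held 4198, 111 and 1315 CPM, and in PvKer.03.g067830 they held 1786, 116 and 538 CPM. Across the 56 genes, log2 CPM in these libraries correlated with the kernel mean of the same point at r = 0.742, 0.485 and 0.696, against a median of 0.495 over the 25 shell libraries with a kernel group. These points are genes of 1 library each, not replicates. Without replicate 1, the count of genes with their highest outside mean in shell at 1759 was 22 instead of 36, and 55 genes instead of 56 met the choice. Whether kernel material took part in these shell values was not tested.

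The genes just inside and just outside the thresholds show how the set is bounded. PvKer.01.g033490 (2032 CPM) and PvKer.02.g060430 (2071 CPM) were the lowest to be included, and PvKer.02.g052330 (1977 CPM) and PvKer.04.g109480 (1968 CPM) the highest at the required distance to be left out. By distance, PvKer.08.g210290 (ratio 5.08) and PvKer.03.g077030 (5.19) were just inside, and PvKer.12.g281620 (3.72) and PvKer.13.g318310 (3.48) just outside. At a minimum of 1000 CPM 101 genes would qualify, and at 4000 CPM 30.

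Changes between periods were tested with edgeR's quasi-likelihood test over all 17248 kernel genes with enough counts, and calls needed both an adjusted p (Benjamini-Hochberg) below 0.05 and a log2 fold change of 1 or more in size. Because each gene was chosen by its highest kernel mean, a gene with its highest mean on either side of a step was not counted in that step. The genes counted in a step reached their highest mean elsewhere in the season. The choice still favours their direction: a gene that is highest after a step tends to rise in it, and one that is highest before it tends to fall. The counts per step therefore describe in which interval the called changes lay. The shares of all genes called carry no such condition, so they are printed beside the counts as background and nothing is read from the difference. The same holds for the p-values of single genes, which concern the change within the interval. Neighbouring steps share the libraries of a period, so their counts are given side by side and are not independent.

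All 39 genes counted in the first step were highest after it. From 1223 to 1357–1657, 34 of them rose and 0 fell, where 11.1% of all genes tested were called higher and 14% lower. DESeq2 also called 34 higher and 0 lower, with 1962 of all genes called higher and 2340 lower. In edgeR 36 of the 39 had an unadjusted p below 0.05, a threshold at which all genes were not counted. The median log2 fold change was 2.31 over the 39 genes and -0.09 over all genes tested. All 9 genes with their highest mean at 1759 to 1881 rose, as did 6 of the 7 genes of 2007 to 2139 and 19 of the 23 of 2284 to 2377.

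Among the largest rises of this step was PvKer.03.g089990, a gene highest at 2284. It held 6.40, 17.5 and 23.6 CPM at 1223 and 71.6 to 468 CPM, with a median of 262 CPM, in the 9 libraries of 1357 to 1657. The sides did not overlap, and the log2 fold change was 4.66 ± 0.56 (SE; edgeR, adjusted p = 1.5e-07). PvKer.01.g018000, a gene highest at 2377, held 0.326, 1.05 and 1.81 CPM at 1223 and 1.59 to 41.6 CPM, with a median of 13.1 CPM, later. Its sides overlapped, and its log2 fold change was 4.37 ± 0.73 (edgeR, adjusted p = 2.3e-05). Of the 7 largest genes, the 4 counted in this step all rose. PvKer.07.g172620 did so by 3.70 ± 0.39 on the log2 scale (edgeR, adjusted p = 2.05e-08) and PvKer.11.g275270 by 2.31 ± 0.29 (edgeR, adjusted p = 2.97e-07).

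From 1357–1657 to 1759–1881, 18 of the 38 genes counted rose and 7 fell, where 7.44% of all genes were called higher and 6.92% lower. Their median log2 fold change was 0.76, and 0.02 over all genes tested. The sorting by highest mean favours these directions: the falls were in 7 of the 8 genes highest at 1223, and the rises in 14 of the 23 genes of 2284 to 2377 and 4 of the 7 genes of 2007 to 2139. Of the 30 genes in the later groups, 12 were not called and none was called lower.

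PvKer.01.g018000 went from a median of 13.1 CPM over 9 libraries to 678 to 1334 CPM over 6 libraries, with a median of 942 CPM. No library of one side reached the other, and the log2 fold change was 6.31 ± 0.43 (edgeR, adjusted p = 1.49e-11). PvKer.09.g213740 went from 2.88 to 21.3 CPM to 125 to 489 CPM, by 4.83 ± 0.30 on the log2 scale (edgeR, adjusted p = 2.17e-12), also without overlap. In the other direction, PvKer.12.g284730 went from 186 to 1044 CPM, with a median of 324, to 11.6 to 179 CPM, with a median of 53.97. Its groups did not overlap, and it fell by 2.58 ± 0.39 on the log2 scale (edgeR, adjusted p = 1.25e-05). PvKer.08.g204210 fell by 3.09 ± 0.65 (edgeR, adjusted p = 0.000632), with overlapping sides.

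From 1759–1881 to 2007–2139, 6 of 40 genes counted rose and 9 fell, where 4.15% of all genes were called higher and 5.89% lower. Over the 40 genes the median log2 fold change was 0.27, and -0.04 over all genes. As the sorting favours, the rises were in genes highest at 2284 to 2377, 6 of 23, and the falls in 5 of the 9 genes of 1357 to 1657 and 4 of the 8 genes of 1223. In each of these groups the remaining genes were not called, 17 of them in the latest group. This step depended most on the libraries and the scaling. Of its 15 calls, 5 held under every alternative run. With library sizes taken from the totals alone, 15 rose and 7 fell, and the median of all genes moved to 0.31. Of all genes tested, 1876 were then called higher and 499 lower, instead of 715 and 1016. Without replicate 3 of every group 11 rose and 10 fell, with 657 of all genes called higher and 1133 lower. Leaving out replicate 1 or 2 left some groups with 1 library. The median log2 fold change was then 0.16 and 0.24 over the 40 genes, and -0.03 and -0.06 over all genes.

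PvKer.07.g172850, one of the 7 largest, went from 37623 to 59632 CPM, with a mean of 43029, to 10880 to 32107 CPM, with a mean of 19708, and fell by 1.59 ± 0.26 on the log2 scale (edgeR, adjusted p = 0.000136). Its 6 late libraries all lay below its 6 earlier ones. PvKer.01.g017580 fell by 4.04 ± 0.50 on the log2 scale (edgeR, adjusted p = 6.53e-06), from 156 to 735 CPM to 11.4 to 92.9 CPM. PvKer.11.g278740 had the largest rise, by 1.74 ± 0.46 on the log2 scale (edgeR, adjusted p = 0.00802), with overlap, and without replicate 2 its adjusted p was 0.177.

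All 26 genes counted in the last step were highest before it. From 2007–2139 to 2284–2377, 0 of them rose and 12 fell, where 2.77% of all genes were called higher and 5.44% lower. DESeq2 gave the same counts, with 458 of all genes called higher and 1251 lower. In edgeR 19 of the 26 had an unadjusted p below 0.05, at which all genes were again not counted. The median log2 fold change was -0.95, and -0.05 over all genes. Of the genes highest earlier, 5 of the 9 of 1357 to 1657, 3 of the 9 of 1759 to 1881 and 4 of the 8 of 1223 fell.

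Of the 6 largest genes counted in this last step, 5 fell. PvKer.03.g067840 went from 4626 to 33570 CPM, with a median of 15893, to 501 to 4075 CPM, with a median of 2474. Its groups did not overlap, and it fell by 3.43 ± 0.43 on the log2 scale (edgeR, adjusted p = 6.25e-06). PvKer.12.g283590 fell by 3.04 ± 0.30 (edgeR, adjusted p = 2.36e-07), from 343 to 1924 CPM to 52.8 to 272 CPM. PvKer.11.g275270 was the 1 of the 6 that was not called: it changed by -0.48 ± 0.23 on the log2 scale (edgeR, adjusted p = 0.157), with means of 34789 CPM before and 23669 CPM after.

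The start and the end of the season were compared in the 25 genes that were highest in between. At 2284 to 2377, 15 of them were higher than at 1223 and 4 were lower, where 18.5% of all genes were called higher and 24.3% lower. Over the 25 genes the median log2 fold change was 1.17, and -0.09 over all genes. With library sizes from the totals alone, 11 were higher and 5 lower, and the median of all genes was -0.47. Of all genes tested, 2235 were then called higher and 5432 lower, instead of 3191 and 4195. All 7 genes of 2007 to 2139 and 6 of the 9 genes of 1759 to 1881 were higher at the end, while 3 of the 9 genes of 1357 to 1657 were lower and 2 higher.

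PvKer.14.g354460 went from 54.5, 124 and 156 CPM at 1223 to 1357 to 3819 CPM at the end, a log2 fold change of 4.82 ± 0.39 (edgeR, adjusted p = 2.77e-11). PvKer.12.g283590 went from 5317, 5591 and 5619 CPM to 52.8 to 272 CPM, and fell by 5.17 ± 0.35 on the log2 scale (edgeR, adjusted p = 9.54e-13). In both, every late library lay on 1 side of every library of 1223. The 7 largest genes divided: PvKer.11.g275270 was higher at the end by 1.03 ± 0.28 on the log2 scale (edgeR, adjusted p = 0.00314) and PvKer.01.g032170 by 1.90 ± 0.30 (edgeR, adjusted p = 4.4e-06). PvKer.03.g067840 and PvKer.03.g067830 were lower, and the other 3 were not called.

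The 6 libraries labelled kernel 2475 and 2564 took no part in choosing or sorting the genes, so all 56 could be compared in them. The direction rests on labels in doubt, since the libraries labelled 2564 resemble those labelled 1223. The 8 genes highest at 1223 held 3.96% ± 0.084 (n = 3) of counts in the libraries labelled 2564, near the 4.42% of kernel 1223 and far from the 0.251% of kernel 2377. In the libraries labelled 2475 they held 0.406% ± 0.0065 (n = 3). The 23 genes of 2284 to 2377 held 0.763% ± 0.062 in those labelled 2564 and 7.10% ± 0.43 in those labelled 2475.

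In the libraries labelled 2475, 31 of the 56 genes were higher than in those labelled 2564 and 13 were lower, where 14.9% of 14097 genes tested were called higher and 24.8% lower. The median log2 difference was 1.16 over the 56 genes and -0.27 over all genes. The direction differed by the period found in the other libraries. Of the 23 genes highest at 2284 to 2377, 22 were higher and 0 lower. Of the 8 highest at 1223, 7 were lower and 0 higher, with a median of -6.71. The genes of 2007 to 2139 gave 6 of 7 higher, those of 1357 to 1657 gave 5 of 9 lower, and those of 1759 to 1881 gave 3 higher, 1 lower and 5 not called.

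PvKer.01.g018000 had the largest difference. It held 6994, 7709 and 7755 CPM in the libraries labelled 2475 and 1.06, 2.01 and 2.02 CPM in those labelled 2564, a log2 difference of 12.07 ± 0.27 (edgeR, adjusted p = 1.05e-14). PvKer.12.g284730 held 3.996, 9.43 and 29.5 CPM against 2866, 3110 and 3391 CPM, a log2 difference of -8.04 ± 0.32 (edgeR, adjusted p = 7.82e-12). Neither gene had any overlap between the groups. PvKer.09.g213740 was higher by 10.09 ± 0.32 on the log2 scale, and PvKer.01.g017580 differed by -7.93 ± 0.25 (edgeR, adjusted p = 6.04e-13 for both). The share of counts on contigs moved with the groups, at 69.4% to 87.1% in the libraries labelled 2475 and 1.39% to 4.95% in those labelled 2564, and its part in the result was not tested.

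**Figure D5:**
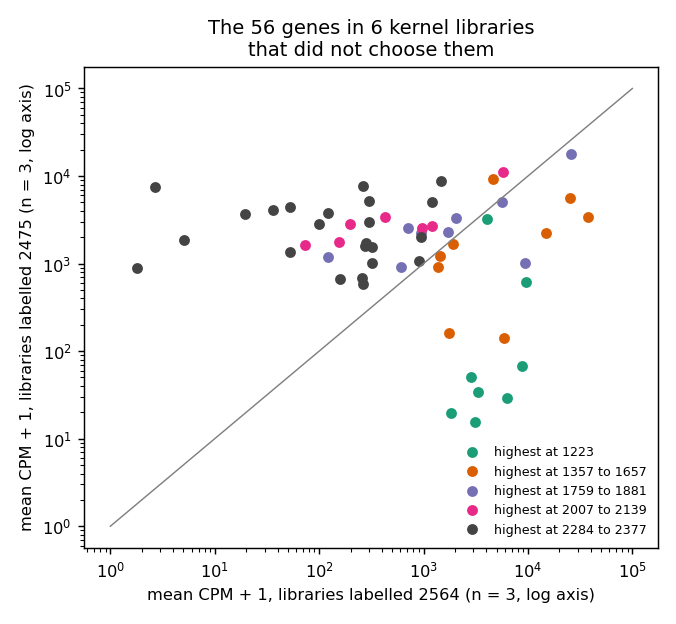
Mean level of each of the 56 genes in the 3 kernel libraries labelled 2475 (vertical axis, CPM plus 1, log axis) against the 3 labelled 2564 (horizontal axis, CPM plus 1, log axis), coloured by the period of the highest mean in the other kernel libraries. The line marks equal levels. Of the 23 genes highest at 2284 to 2377, 22 were called higher in the libraries labelled 2475, and 7 of the 8 genes highest at 1223 were called lower.

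In shell and hull the choice set only a ceiling, so change over the season there could be tested in all 56 genes. In shell, 38 genes rose and 4 fell from 865–1106 to 1881–2139, where 11.4% of 18762 genes tested were called higher and 17.9% lower. The median log2 fold change was 2.73 over the 56 genes and 0.01 over all genes. By kernel period, 8 of 9 genes of 1759 to 1881, 7 of 9 of 1357 to 1657, 5 of 7 of 2007 to 2139 and 16 of 23 of 2284 to 2377 rose, while 2 of the 8 genes of 1223 rose and 3 fell.

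Among the 10 late shell libraries, replicate 3 of shell 2007 stood apart. It held 1.51% of its counts in the 56 genes, the most of the 10, and it had the highest value in 36 of the 56 genes. How often this library was highest over all genes was not counted. PvKer.11.g278740 held 527 CPM there, and 21.5 and 24.2 CPM in the other 2 libraries of the point. Its log2 CPM over the 56 genes correlated with the kernel mean of the same point at r = 0.668, and replicate 2 of shell 2139 did so at r = 0.648, against 0.419 to 0.592 in the other 8. Without replicate 3 of shell 2007, 38 genes rose and 6 fell, with 2054 of all genes called higher and 3594 lower. Without both libraries 37 rose and 6 fell, with 1992 of all genes called higher and 3600 lower. The median log2 fold change without both was 2.08 over the 56 genes and -0.03 over all genes. The part of kernel material in these libraries was not tested.

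These shell levels were low, and PvKer.11.g275270 set the total. The 56 genes together held 0.977% ± 0.21 of shell counts early (n = 9) and 1.04% ± 0.26 late (n = 10), and without PvKer.11.g275270 they held 0.392% ± 0.043 early and 0.393% ± 0.14 late. PvKer.05.g135390 held 0.265 to 1.27 CPM early, with a median of 0.675, and 19.9 to 62.7 CPM late, with a median of 25.9, a log2 fold change of 5.41 ± 0.42 (edgeR, adjusted p = 5.07e-12). PvKer.12.g285570 had a log2 fold change of 5.07 ± 0.56 (edgeR, adjusted p = 5.38e-09), from 0.509 to 1.05 CPM to 8.96 to 160 CPM. Without replicate 3 of shell 2007, its highest late library, this was 4.39. Both had no overlap between early and late libraries. Of the 7 largest genes, 6 rose without overlap, PvKer.07.g172620 from a mean of 7.40 CPM to 158 CPM, while PvKer.11.g275270, at 5853 and 6458 CPM, was not called (log2 fold change 0.12 ± 0.17; edgeR, adjusted p = 0.562). Overlap was counted in the 56 genes only, where 29 were higher and 3 lower without it, and not over all genes.

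The falls in shell were steep. PvKer.01.g017580 went from 68.3 to 897 CPM, with a median of 667, to 4.64 to 28.5 CPM, with a median of 10.5, and fell by 5.52 ± 0.35 on the log2 scale (edgeR, adjusted p = 5.84e-14). PvKer.12.g284730 went from 32.1 to 340 CPM to 1.67 to 7.52 CPM, and fell by 5.09 ± 0.34 (edgeR, adjusted p = 2.1e-13). Both genes were highest in kernel at 1223, and both also fell in kernel from 1759–1881 to 2007–2139.

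In hull, 16 genes rose and 9 fell from 865–1106 to 2377–2564, where 14.2% of 18924 genes tested were called higher and 21.5% lower. The median log2 fold change was 0.65, and -0.06 over all genes. With library sizes from the totals alone, 25 rose and 8 fell, with 3214 of all genes called higher and 3656 lower. The 56 genes held 0.744% ± 0.30 of hull counts early and 1.26% ± 0.15 late (n = 9 each). Without PvKer.11.g275270 they held 0.265% ± 0.039 and 0.287% ± 0.023, so that 1 gene accounted for most of the difference in the sum.

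PvKer.11.g275270 rose in hull by 1.02 ± 0.13 on the log2 scale (edgeR, adjusted p = 9.05e-09), from a mean of 4790 CPM to 9677 CPM, with overlap between the libraries. It was the 1 gene of the 7 largest that was called there. PvKer.12.g283590 went from 72.9 to 588 CPM, with a median of 88.0, to 2.86 to 7.03 CPM, with a median of 4.96, and fell by 5.03 ± 0.21 on the log2 scale (edgeR, adjusted p = 7.61e-21). PvKer.12.g288450 fell by 3.89 ± 0.27 (edgeR, adjusted p = 4.2e-15), from 21.6 to 97.4 CPM to 2.67 to 6.997 CPM. The largest rises were at very low levels: PvKer.01.g018000 rose by 2.66 ± 0.34 on the log2 scale (edgeR, adjusted p = 1.37e-08), from a median of 0.302 CPM to 2.26 CPM.

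Some of the 56 genes have neighbouring identifiers. PvKer.03.g067800, PvKer.03.g067830 and PvKer.03.g067840 form 1 run. The levels of the last pair went together over the 29 kernel libraries (r = 0.903 on log2 CPM), and those of PvKer.03.g067800 did not follow PvKer.03.g067840 (r = -0.13). PvKer.03.g067820, within the same run, reached 7573 CPM at 2377 but was only 2.31 times its highest mean outside kernel, so it was not included. On chromosome 7, PvKer.07.g172620 and PvKer.07.g172660 went together (r = 0.974), with highest means of 53460 and 6727 CPM, both at 1759. These correlations describe libraries that share sampling points and depth. How reads shared by near-identical copies were assigned, and whether strand was used, is not given in the sources used here, so the split of counts between close or overlapping genes is uncertain. Chromosome 1 held 10 of the 56 genes (17.9%, with 9.52% of all PvKer genes) and chromosome 7 held 7 (12.5%, with 6.43%).

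Of the left-out libraries, 4 are labelled with kernel points that were used. Replicate 3 of kernel 1759, with 23566001 counts in genes, held 21.7% of them in the 56 genes, and 54 of the 56 were below both libraries used. Replicate 1 of kernel 2139 was below all 3 libraries used in 41 genes and held 19.3%. Replicate 2 of kernel 2284, with 202455 counts, was below in 37 genes and above in 5, and replicate 3 of kernel 2377 was below in 25 and above in 24. The same counts over all genes were not made. The libraries used chose genes for high means, which favours lower values in libraries left out, so nothing is read from these counts. With all libraries under their labels, 58 genes would qualify, 53 of them among the 56.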

How the data were processed

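The authors deposited 1 table of raw read counts per gene, whole numbers and not normalized, with 1 column per library. Per the labels' protocols, sequencing gave read pairs of 150 bp. The submitters' processing notes name Trimmomatic 0.39 and Bowtie2 2.3.4.1, without a role. Counting tool, genome build and annotation: not given in the sources used here. Of the identifiers, 10141 had no count at all.

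CPM was computed over PvKer rows only. Contig-named rows were left out of library sizes and tests, and they held 0.728% to 58.1% of the counts of the kernel libraries used, 0.175% to 7.40% in hull and 0.150% to 9.49% in shell. The test was that of edgeR 4.0.16 (R 4.3.3): TMM, filterByExpr by group, glmQLFit and glmQLFTest, 1 mean per sampling point, the points of a period averaged with equal weight, Benjamini-Hochberg adjustment over all genes tested. Each tissue had its own fit, and the libraries labelled kernel 2475 and 2564 had another. A standard error is the size of the log2 fold change over the root of its F statistic. The procedure was tested on simulated counts.

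The genes and lists were chosen with earlier results of these data known. Described genes are the 10 with the highest kernel mean, the 2 highest of each period, those at the thresholds, neighbours in identifier number, and at most the 2 largest rises and falls per test, beside the 7 largest genes. PvKer.11.g278740 and PvKer.09.g213740 were also described at 2284, after their values were seen. Groups came from the labels. The labels name no batch, and none was used. In 136 pairs of libraries of 1 group the lowest chi-square per degree of freedom was 3.32, so no pair agreed within sampling noise. Alternatives were RLE size factors, library size alone, DESeq2 1.42.0, no filter on low counts, contig rows included, all libraries kept, other thresholds, and each replicate number left out.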

Additional observations from a re-analysis of the deposited data

Results flagged for a closer look

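In every group of 4 libraries, the highest and lowest values of the share of counts in the 56 genes, and at kernel 1881 those of the level of 13 described genes, were set against the others of the group. Of 21 such sets, 3 had a library that stood apart by Dixon's 95% critical value. Chance flags about 1 in 20 independent groups. The 13 genes were read in the same 4 libraries, so these sets are not independent and the rate is no yardstick for them. PvKer.01.g016140 was lowest in replicate 4 of kernel 1881, at 45312 CPM, with the other 3 libraries at 50497 to 51432 CPM. PvKer.07.g172850 was highest in replicate 2 of kernel 1881, at 59632 CPM, with the others at 37623 to 40923 CPM. The share of counts in the 56 genes was highest in replicate 4 of hull 1357, at 1.25%, with the other 3 libraries at 0.856% to 0.917%. One of these 3, replicate 1, was among the libraries that the choice left out, and the screen of shares included such libraries.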

How the results depend on the processing

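Thresholds set the size of the list: 101 genes qualified at a minimum of 1000 CPM and 30 at 4000 CPM, against 56 at 2000 CPM. The other alternatives gave 46 genes (a ratio of at least 10) to 74 (a ratio of at least 2), and leaving out each replicate number gave 54 to 56. The step from 1759–1881 to 2007–2139 was the least stable. The number of genes that rose, 6, was 15 with library size alone, 11 without replicate 3 and 5 without replicate 4. Of all genes tested, 715 were called higher in the main run, and 1876, 657 and 776 in these runs. Leaving out replicate 1 or 2 left some groups with 1 library, so no counts are given for those runs. In hull, the 16 that rose became 25 with library size alone, while all genes called higher went from 2685 to 3214. The cause was not tested. Of 185 alternative counts of the 56 genes, 178 stayed within 1.5 times, and 179 of 216 calls held under every alternative run, with no change of sign. The 178 include counts of 0 that stayed 0, the falls in the first kernel step and the rises in the last, which the sorting favours. Library size alone moved the median log2 change of all kernel genes to -0.61 in the first step and -0.17 in the second. Leaving out replicate 1 of kernel 1881 or of shell 1759, replicate 3 of shell 2007, or that and replicate 2 of shell 2139, was chosen after seeing the data. Where a replicate number left a group with 1 library, that library is assumed to vary like the others. No paired analysis was possible because the replicate numbers follow accession order only. Depth limits the libraries labelled 2475 most. Counting of close copies, unnamed genes and label doubts limit what the levels show.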
